A study of Mus musculus with 8 samples.

Results

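The T138 line was compared with wild-type (WT) regulatory T cells (Treg cells) by messenger RNA sequencing, gene by gene and pathway by pathway. The members were chosen by their labels: the 2 T138 libraries and the 3 WT libraries, 5 of the 8 libraries in the series. The series asked whether the Treg population holds separate subsets, using mouse lines cloned from Treg nuclei. All cells were sorted by flow cytometry as positive for CD4 and for Foxp3, and no treatment was given.

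T138 mice derive from nuclear transfer, that is, from an egg given the nucleus of a body cell. A line made from a T cell nucleus carries the rearranged receptor genes of that cell, so T138 stands for 1 receptor, while WT cells carry many. Every library, WT included, has the strain label NOD-Foxp3GFP-Rag1-/-, which names the NOD background, a green fluorescent reporter of Foxp3 and a knockout of Rag1, the recombinase that joins receptor segments. No other label states whether the WT animals lack Rag1. Cells with many receptors need Rag1 to join the segments, which the label would deny to WT animals. Rag1 genotype and line therefore cannot be told apart. Age, sex and organ of the mice are not given in the labels. The source name of WT replicate 1 names a T143 mouse, the other cloned line of the series, while its description and model label say wild type. Likewise the source name of T143 replicate 1, which enters only the shared estimate of spread, names a T138 mouse. Nothing in the labels ties libraries to separate animals, so p-values measure the spread between libraries, which may be technical. Recovered depth was 15840684 and 18414119 reads in T138 and 14639549 to 22636489 in WT.

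Treg cells restrain other lymphocytes and depend on the transcription factor Foxp3, on interleukin-2 and on signals from their antigen receptor. Resting Treg cells circulate through lymph nodes with the homing receptor Ccr7. Activated ones lose it, and those that settle in tissues take up receptors for tissue alarm signals such as interleukin-33, with the factors Gata3, Rora and Pparg. Antigen receptor signals run through the kinases Lck and Zap70 to calcium, MAP kinase and NF-kB arms, and switch on early-response genes of the AP-1, EGR and NR4A families. Values below are normalised read counts per library, in the order of the replicate numbers. Changes are T138 minus WT on the log2(value + 1) scale with the standard error, and a gene rose or fell where limma's Benjamini-Hochberg adjusted p was under 0.05. All p-values are two-sided.

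The sort genes did not pass the test. Foxp3 (chromosome X, 7579676 to 7595243, GRCm38) had values of 41854 and 41161 in T138 and of 29773, 36362 and 35359.6 in WT, a change of 0.30 ± 0.27 (limma, adjusted p = 0.542). Both T138 values lay above the 3 WT values. Cd4, the co-receptor used in the sort, was at 12819.7 and 12235 against 14769.7, 16651 and 17655 (-0.38 ± 0.17, adjusted p = 0.202), with both T138 values below WT. Rag1 (chromosome 2, 101638252 to 101649532) was at 108 and 107 in T138 against 0, 0 and 18.2 in WT (5.34 ± 1.23, adjusted p = 0.0201), a call lost without T138 replicate 1 or 2 or WT replicate 1 or 2, where its highest adjusted p was 0.107, and lost in edgeR (adjusted p = 0.115), and lost in a fit of the 5 libraries alone, without trend and robust fitting or without both libraries whose source name points to another mouse. Its partner Rag2 was at 0 in these 5 libraries. Where the knockout removes part of the gene only, reads from the rest say nothing of the protein.

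Of 24453 genes in the table, 15547 could be tested, and 1716 of them passed, which is 11%. Of these, 892 rose in T138 (5.74% of those tested) and 824 fell (5.30%). Those that rose had a median change of 3.15 and those that fell a median size of 1.42. In all 892 rises and all 824 falls the T138 and WT values did not overlap. A lack of overlap thus sets no called gene apart from the others. Most of the large rises started from little: 584 of the 892 had a WT mean at or under the median level of tested genes, with a median rise of 4.38, while the other 308 had a median rise of 0.93. The falls divided more evenly, with 418 at or under that level in T138 (median size 3.49) and 406 above it (0.85). The median change over all tested genes was -0.065. Without T138 replicate 1, T138 replicate 2 or WT replicate 3 the number that passed was 1001, 757 or 1096, with falls outnumbering rises without T138 replicate 1 (578 against 423), and without both libraries whose source name points to another mouse it was 1386. In each of the 8 fits that left out 1 library, 510 of the 1716 passed again, 290 higher and 220 lower. Genes given below with a change or a p did so too, and passed in edgeR and under the other settings tried, except a minimum change of 1 on the log2 scale, unless what ended the call is given.

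**Figure D1:**
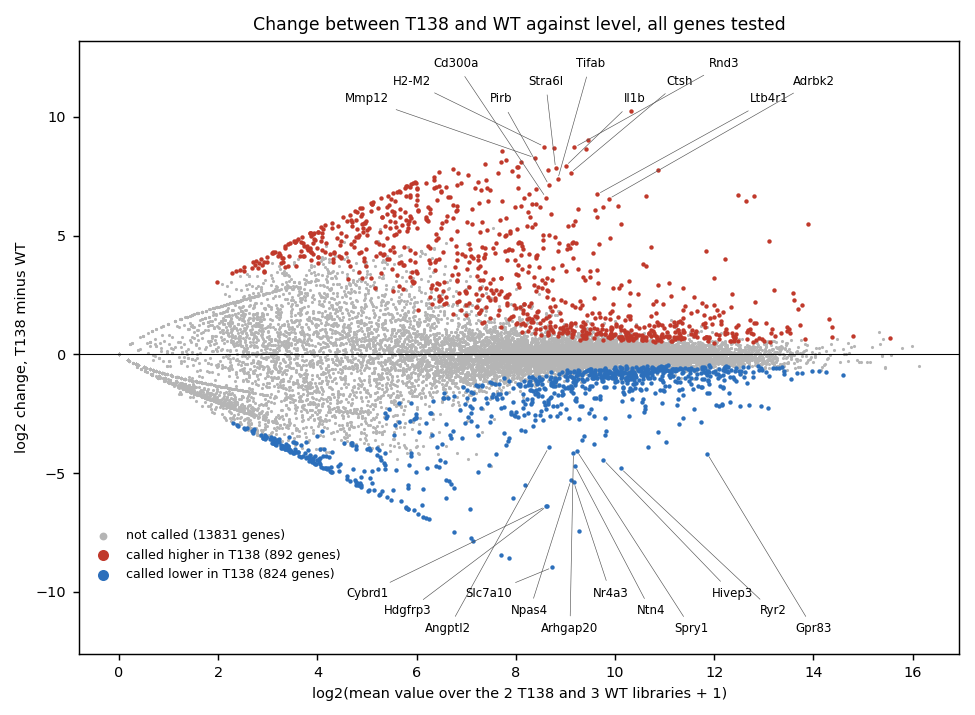
Each point is a tested gene, with its level (log2 of the mean value over the 5 libraries plus 1) on the horizontal axis and its log2 change, T138 minus WT, on the vertical axis; red points rose and blue points fell in T138. Of the 892 genes that rose, 461 rose at least 8-fold, and of the 824 that fell, 241 fell as much; the labelled genes are the large rises and falls named in the text.

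The sorted cells of T138 carried transcripts of other blood cells that were scarce in WT, and they are given first because they differed between T138 and WT. The other cloned line, T143, carried such transcripts too. MHC class II genes, which dendritic cells and B cells use to present antigen, were highest: the 8 genes summed to 100500 and 75650 in T138 against 3205, 2225 and 2487 in WT, and 7 of 8 rose. In T143 they summed to 7274, 28450 and 19670, less than in T138. H2-Aa, an alpha chain, was at 20488 and 14714 in T138 against 365, 95.8 and 141 in WT. Cd74, the invariant chain, was at 41839 and 31846 against 844, 776 and 839 (5.48 ± 0.47). Of 12 conventional dendritic cell markers, 9 rose and 1, Btla, fell. Among those that rose were the integrin Itgax at 3851 and 3803 against 10.3, 135 and 34.2 and the class II transactivator Ciita at 1647 and 1089 against 24.1, 47.9 and 23.6. The list summed to 12210 and 10300 in T138 against 2989, 3846 and 2901 in WT. Clec9a and Clec10a, dendritic cell lectins named after their values were seen, were at 0 in all 3 WT libraries and at 70.9 and 138.01 and at 199.8 and 86.4 in T138.

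Neutrophil markers differed strongly also between the 2 T138 libraries. Their sum was 26560 and 5019 in T138 against 85.42, 937 and 372 in WT, and 12 of 17 rose. In T143 that sum was higher than in T138, at 101000, 174300 and 624300, as was that of monocyte markers, at 10880, 38700 and 44080. S100a9, a calcium-binding protein of neutrophils, was at 7989 and 1218 against 33.8, 14.9 and 4.56, with T138 replicate 1 far above replicate 2, a call lost without the filter on low values or with a replicate block. Of 13 natural killer and ILC1 markers 9 rose, 8 without WT replicate 3 and 6 in every fit that left out 1 library, with the adaptor Tyrobp at 1771 and 1074 against 11.7, 49.0 and 34.2. That list summed to 3740 and 2938 in T138 against 562, 389.8 and 419.5 in WT. Its 1 fall was Eomes, a natural killer cell transcription factor, at 57.1 and 104 against 358, 214 and 197, a call lost without T138 replicate 1 or 2 or T143 replicate 2 or WT replicate 1 or 2 or 3, where its highest adjusted p was 0.191, and lost in edgeR (adjusted p = 0.0631), and lost in a fit of the 5 libraries alone, without the filter on low values, without trend and robust fitting, with a replicate block or without both libraries whose source name points to another mouse. Monocyte markers rose for 4 of 17 (1 without T138 replicate 1 or 2), and their sum was 4915 and 3871 in T138 against 836, 896 and 842 in WT. Of 8 plasmacytoid dendritic cell markers 3 rose, of 8 mast cell and basophil markers 2 (0 without T138 replicate 1 or 2 and 1 without WT replicate 1 or 3) and of 10 erythroid markers 2, the near-identical globin copies Hba-a1 and Hba-a2, which counting can split (0 without T138 replicate 1 or 2 or WT replicate 1 and 1 without WT replicate 3). The shares called in these lists were 37.5%, 25% and 20%, in that order, against 11% of all tested genes.

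B cell, CD8 T cell and platelet markers gave no call. Of 9 tested B cell markers limma called 0, with 1 higher and 2 lower at an unadjusted p under 0.05, and edgeR and DESeq2 called 0. Without T143 replicate 3 or WT replicate 1 limma called 1 higher, and without T138 replicate 1 it called 1 lower. The 11 B cell genes in the table summed to 1184 and 848 in T138 against 955, 437 and 721 in WT. The B cell markers Ebf1 and Pax5 are named after their values were seen. Ebf1 was at 0 in all 5 libraries and Pax5 in 4 of 5, with 8.95 in WT replicate 1. Other members of the list thus held reads in both groups. Of 4 CD8 T cell markers limma, edgeR and DESeq2 called 0 (1 at an unadjusted p under 0.05), and of 8 platelet markers 0 by any of the 3 and 0 unadjusted. Of 5 plasma cell markers 2 fell: Jchain, the joining chain of secreted antibodies, was at 5.91 and 0.85 in T138 against 123, 1987 and 955 in WT. Of 11 stromal, endothelial and epithelial markers 1 rose and 1 fell (2 without T138 replicate 2 for rises and 0 without T138 replicate 1 or 2 or T143 replicate 2 or WT replicate 1 or 3 for falls), and of 6 thymocyte markers 1 rose (0 without T138 replicate 1 or 2 or WT replicate 1 or 2 or by edgeR). The shares called were 18.2% of the stromal list and 16.7% of the thymocyte list, against 11% of all tested genes. In bulk samples fewer cells of a type and less RNA per cell cannot be told apart. The part of these other cells in the results below was not tested.

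**Figure D2:**
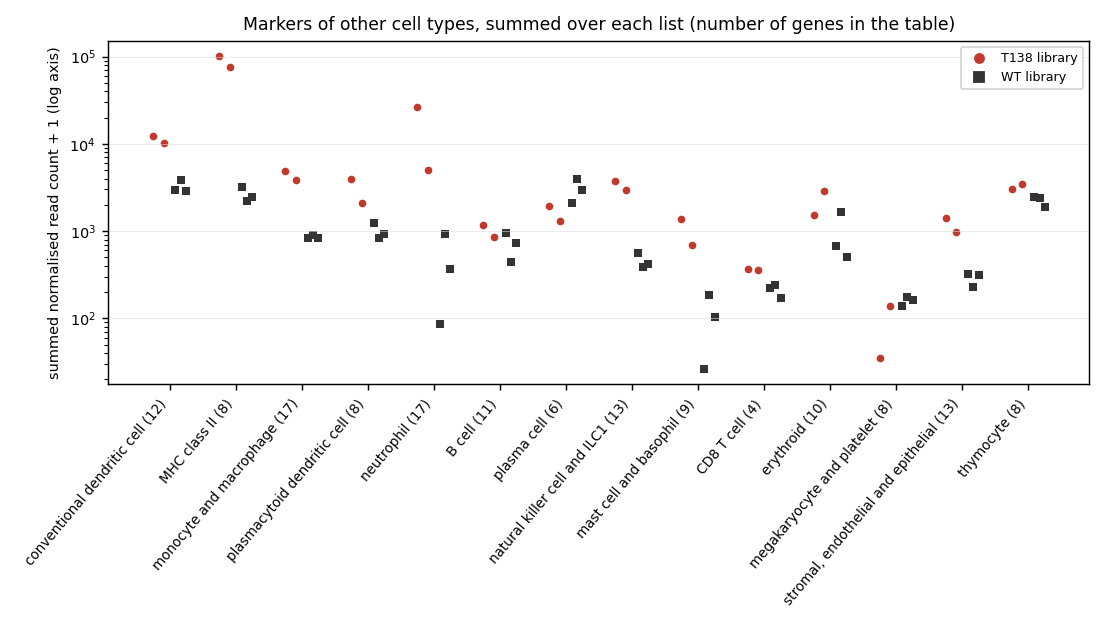
Summed normalised read count plus 1 (log axis) of 14 marker lists of other cell types, with the number of genes in the table in brackets; circles are the 2 T138 and squares the 3 WT libraries. Dendritic cell, MHC class II, monocyte, neutrophil and natural killer lists lie higher in both T138 libraries than in any WT library. The plasmacytoid dendritic cell, mast cell, CD8 T cell, stromal and thymocyte lists do too. The B cell and erythroid lists overlap, and the plasma cell and platelet lists lie lower in both T138 libraries.

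The largest rises by fold were at genes near 0 in WT, as a ranking by fold favours such genes. These genes passed the filter on level, a mean over the 5 libraries, through their T138 values. Among the 12 largest at genes above the median level, with markers of other cell types left out, were H2-M2, Rnd3, Mmp12, Il1b, Stra6l, Ctsh, Tifab, Pirb, Ltb4r1, Cd300a and Adrbk2. Several of them have known roles in myeloid cells: Mmp12 is the macrophage elastase, Il1b encodes the inflammatory cytokine interleukin-1 beta, and Pirb and Cd300a are inhibitory receptors. H2-M2, an MHC class Ib gene (chromosome 17, 37480851 to 37483554), was at 1119 and 775 in T138 against 0, 2.13 and 2.28 in WT (8.74 ± 0.75, adjusted p = 0.000131). Il1b was at 1645 and 889 against 28.2, 3.19 and 0, and Mmp12 at 774 and 866 against 0, 0 and 17.5. For both, the highest WT library stayed under 1 in 10 of the lower T138 library.

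Others of the 12 include Rnd3, Adrbk2 and Ltb4r1, for which a source in myeloid cells was not tested. Rnd3, an atypical small GTPase that opposes actin fibre formation, was at 1383 and 1499 against 1.38, 0 and 16.0 (8.71 ± 1.09, adjusted p = 0.000999). Adrbk2, which encodes the receptor kinase GRK3, was at 2399 and 2199.7 against 13.78, 40.5 and 23.6 (6.54 ± 0.73, adjusted p = 0.000615). Ltb4r1, the high-affinity receptor for the chemoattractant leukotriene B4, was at 1897 and 2020.2 against 4.82, 30.9 and 32.7 (6.73 ± 0.88). In each of these 3 genes the T138 libraries lay close to each other and far above WT. The call of Pirb was less firm: it was lost without T138 replicate 1, where its highest adjusted p was 0.0519, and lost without the filter on low values or without trend and robust fitting. That of Tifab was lost without the filter on low values.

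The 12 largest falls among genes above the median level were Slc7a10, Cybrd1, Hdgfrp3, Nr4a3, Npas4, Ryr2, Ntn4, Hivep3, Gpr83, Arhgap20, Spry1 and Angptl2. Slc7a10, a transporter of small neutral amino acids (chromosome 7, 35186095 to 35201116), was at 0 and 0.85 in T138 against 523, 633 and 965 in WT (-8.98 ± 1.10, adjusted p = 0.000889). Ryr2, a calcium release channel of the endoplasmic reticulum (chromosome 13, 11553099 to 12106945), was at 39.4 and 101 against 1663, 2037 and 1701 (-4.81 ± 0.34, adjusted p = 5.97e-05). Gpr83, a G protein-coupled receptor known as a Treg marker (chromosome 9, 14859880 to 14870789), was at 422 and 249.8 against 6906, 5281 and 5693 (-4.18 ± 0.23, adjusted p = 2.42e-05). In each of the 3, every WT library was far above both T138 libraries.

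Npas4, an activity-dependent transcription factor, was at 16.7 and 23.7 against 433, 1304 and 985 (-5.30 ± 0.75), with WT replicate 1 the lowest of the WT libraries. Hivep3, a zinc finger regulator of transcription, was at 55.1 and 69.4 against 987, 1640.1 and 1599 (-4.45 ± 0.39), and the secreted guidance factor Ntn4 at 53.1 and 22.9 against 1198, 832 and 812 (-4.70 ± 0.48). Cybrd1, a ferric reductase, differed between the T138 libraries, at 53.1 and 0, against 729, 649.6 and 511 in WT, a call lost without the filter on low values, without trend and robust fitting or without both libraries whose source name points to another mouse. The call of Angptl2 was lost without T138 replicate 1 or WT replicate 3, where its highest adjusted p was 0.0949, and lost without trend and robust fitting or without both libraries whose source name points to another mouse.

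Some genes were at the detection floor, at most 3 reads in each library of a group, while every library of the other group was at 100 or more. This held for 23 genes found in T138 and 8 found in WT. Of the 23, 5 were markers of other cell types, such as the neutrophil granule gene Ngp at 5491 and 891 in T138. Chil3, a chitinase-like protein of myeloid cells, was at 0 in all 3 WT libraries and at 882 and 161 in T138, at least 163.4-fold higher against the floor of 3 reads per library. Vsx1, a homeobox factor best known in the retina, was at 218 and 334 in T138 against 0, 3.19 and 0.76 in WT.

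None of the 8 genes found in WT was a marker of another cell type on the lists. With 0 reads in both T138 libraries, Dnah7a, a dynein heavy chain, was at 376, 371 and 293 in WT, at least 117.5-fold lower in T138. Gucy1a3, a subunit of the nitric oxide receptor guanylate cyclase, was at 273, 496 and 397 in WT and 0 in T138, at least 131.7-fold lower. Greb1, known as an oestrogen-induced gene, was at 252, 223 and 228 and 0, at least 79.4-fold lower. The others were Slc7a10, Gjb2, Mmp11, Mmp15 and Ptrf. For Dnah7a, Gucy1a3 and Greb1 the highest WT library was less than 2 times the lowest.

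**Figure D3:**
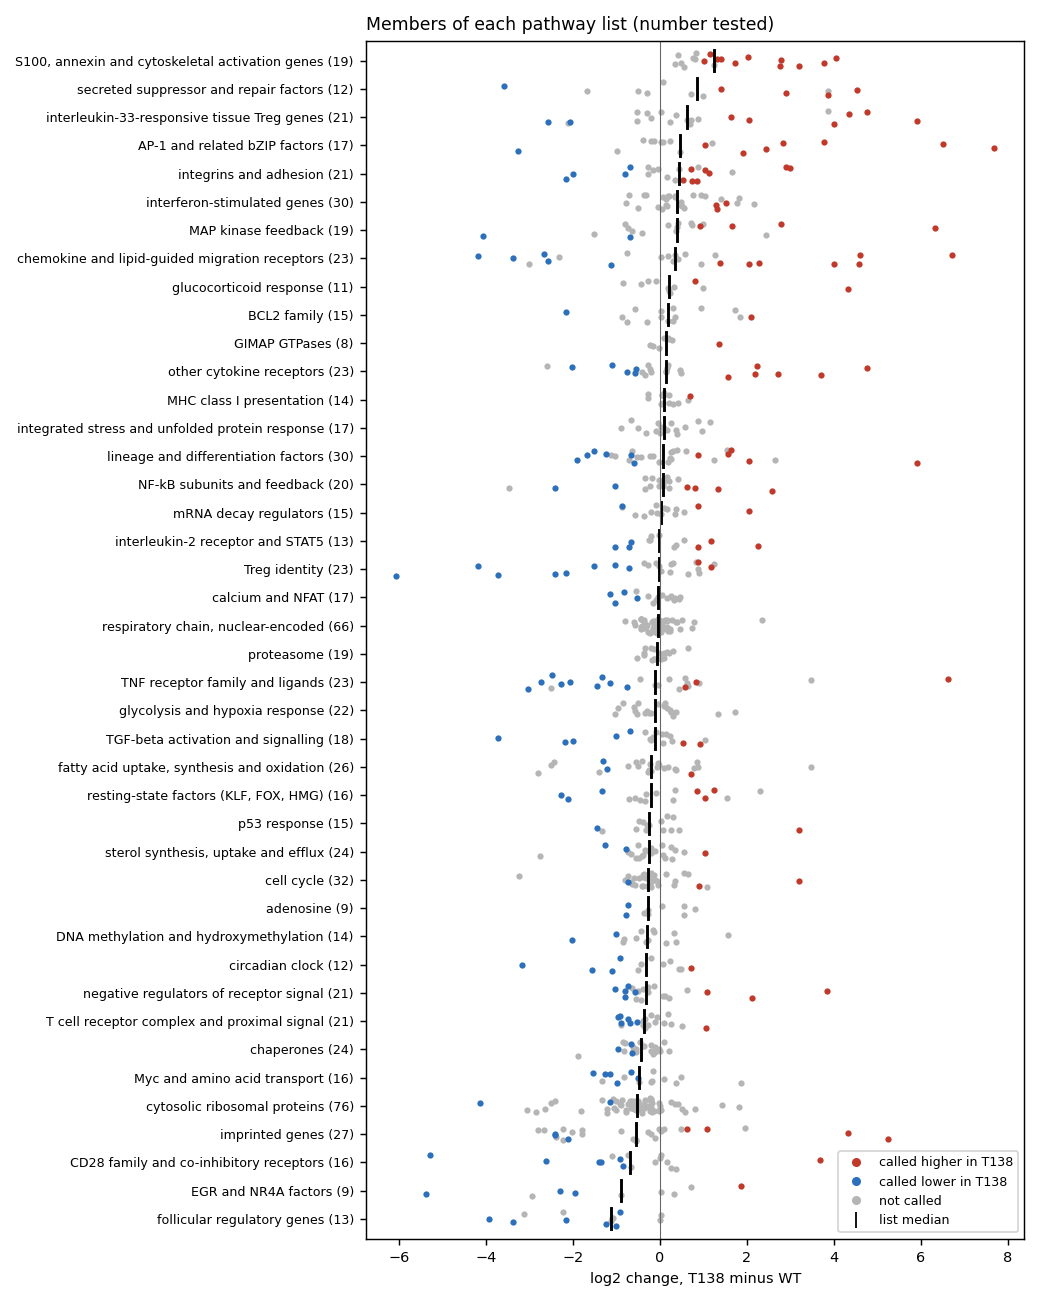
Log2 change, T138 minus WT, of each tested member of the 42 pathway lists (number tested in brackets), ordered by list median, which the black bar marks; red members rose, blue members fell and grey members did not pass. The S100 and annexin list has the highest median (1.25) and the follicular list the lowest (-1.13), and the respiratory chain, proteasome, glycolysis and integrated stress lists hold no coloured point.

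Receptors for cytokines other than interleukin-2 changed both ways. Of 23 tested, 6 rose and 5 fell, against 5.74% and 5.30% of all genes. Il1rl1, the receptor for interleukin-33, stood at 21077 and 20371 in T138 against 404, 829.6 and 1313 in WT. Il7r, the alpha chain of the interleukin-7 receptor (18654 and 19783 against 2693, 3280.2 and 2771), rose by 2.73 ± 0.16 (adjusted p = 2.42e-05), and both T138 libraries were more than 5 times the highest WT library. Ifngr1, the ligand-binding chain of the interferon gamma receptor, was at 12924 and 14173 against 2973, 2621 and 3369.8 (2.19 ± 0.21, adjusted p = 0.000277). Among the other rises was Il9r, the interleukin-9 receptor, named after its values were seen, at 3537 and 3546 against 198, 322 and 306.

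The signalling chain of the interleukin-6 receptor moved the other way. Il6st, known as gp130, was at 1780.5 and 1777 in T138 against 6422, 8817 and 6751 in WT (-2.03 ± 0.21, adjusted p = 0.000424). Its partner Il6ra, named after its values were seen, was at 2198 and 2303 against 4729, 4941 and 4675 (-1.09 ± 0.15, adjusted p = 0.00182). Both chains were lower in each T138 library than in any WT library, as held for every gene that fell. For both, the T138 libraries were close to each other. The 5 falls of the list became 3 without T138 replicate 1 or 2 or T143 replicate 2 or WT replicate 3 or by edgeR.

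Genes of the interleukin-33-responsive, tissue-resident Treg state rose for 6 of 21 and fell for 2, with a list median of 0.63. Klrg1, an inhibitory lectin receptor of effector cells, was at 8456 and 8555 against 313, 406 and 566 (adjusted p = 5.47e-05). Gata3, the factor that drives Il1rl1 in type 2 cells, was at 7170.2 and 7643 against 2187, 2330.2 and 2634 (adjusted p = 0.000162). Rora, a nuclear receptor, was at 6982 and 7779 against 1273, 2657 and 1648 (2.05 ± 0.30). Pparg, the lipid-sensing nuclear receptor of fat-tissue Treg cells, was at 1091 and 947 against 8.95, 34.1 and 12.9 (5.91 ± 0.90, adjusted p = 0.00255). These rises were close in size in both T138 libraries. All 6 passed without any 1 library.

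Besides the 6 rises, the list of that state held 2 falls, Tnfrsf9 and Ccr8, and its other members, most of the 21, did not pass. Only Tnfrsf9 passed again in every fit that left out 1 library. Tnfrsf9, the receptor 4-1BB, was at 726 and 619 against 3227, 2183 and 3102 (-2.06 ± 0.25, adjusted p = 0.000842). Ccr8, a chemokine receptor of tissue Treg cells named after its values were seen, was at 83.7 and 43.2 against 279.6, 332 and 503, a call lost without T138 replicate 1 or 2 or WT replicate 1 or 2 or 3, where its highest adjusted p was 0.21, and lost in edgeR (adjusted p = 0.067), and lost without the filter on low values, without trend and robust fitting or without both libraries whose source name points to another mouse. Among the 30 lineage factors as a whole 5 rose and 6 fell. Ikzf4, or Eos, a partner of Foxp3 in gene repression, fell: it was at 1244 and 1088 against 2526, 3882 and 3729 (-1.51 ± 0.22). The 5 rises became 3 without T138 replicate 1, and the 6 falls 1 without T138 replicate 1 or 2, 3 without T143 replicate 2 or WT replicate 2 or by edgeR and 2 without WT replicate 1 or 3.

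Among genes of Treg identity, 8 of 23 fell and 2 rose. Besides Gpr83 and Ikzf4, Izumo1r, the receptor known as folate receptor 4, was at 2335 and 1924 in T138 against 10019, 7065 and 11907 in WT (-2.16 ± 0.26, adjusted p = 0.000764). Cpe, a carboxypeptidase, was at 1.97 and 0 against 342, 71.3 and 60.8, where WT replicate 1 was the highest, and its call was lost without T138 replicate 2, where its highest adjusted p was 0.0612. Lrrc32, or GARP, which docks latent TGF-beta on the Treg surface, was at 261 and 244 against 2812, 3586 and 3578 (-3.71 ± 0.66, adjusted p = 0.00737), a call lost without the filter on low values. The lower T138 levels of Gpr83, Izumo1r and Lrrc32 showed no overlap with WT, as held for every gene that fell. The 8 falls in the list became 4 without T138 replicate 2, and the 2 rises became 0 without T138 replicate 1, 1 without T138 replicate 2 or WT replicate 2 or 3 and 4 without T143 replicate 3.

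In the interleukin-2 pathway 3 of 13 genes rose and 3 fell. Il2rb, the beta chain that signals to STAT5, was at 8091 and 6462 in T138 against 16452, 13486 and 14966 in WT (-1.04 ± 0.19, adjusted p = 0.00707), a call lost without T138 replicate 2, where its highest adjusted p was 0.0911, and lost without trend and robust fitting. Stat5a, the factor itself, was at 1834 and 1746 against 2974, 2508 and 3009.6, a call lost without T138 replicate 1 or 2 or WT replicate 3, where its highest adjusted p was 0.106, and lost without trend and robust fitting or without both libraries whose source name points to another mouse. Pim1, a kinase induced by STAT5, was at 23369 and 24043 against 5352, 4149 and 5363 (2.27 ± 0.19, adjusted p = 0.00012). Cish, a feedback inhibitor induced by STAT5, was at 7655 and 6781 against 4232, 3336 and 4199 (0.89 ± 0.17), a call lost without T138 replicate 1, where its highest adjusted p was 0.0798, and lost without trend and robust fitting. The receptor chain and Stat5a were thus lower, and Pim1 and Cish higher, in both T138 libraries. The 3 rises became 1 without T138 replicate 1, and the 3 falls 1 without T138 replicate 1 or WT replicate 3 and 0 without T138 replicate 2.

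Of 23 receptors and ligands of the TNF family 9 fell and 3 rose. Tnfsf8, the CD30 ligand, was at 80.7 and 231 in T138 against 835, 1183 and 765 in WT (-2.73 ± 0.44, adjusted p = 0.00349). Fas, a death receptor, was at 282 and 423 against 1143, 810.5 and 906 (-1.44 ± 0.25, adjusted p = 0.00494). Ltbr, the lymphotoxin beta receptor, which is known from stromal and myeloid cells rather than T cells, was at 144 and 127 against 0, 0 and 1.52. The 9 falls became 4 without T138 replicate 2 and 5 without WT replicate 3, and the 3 rises 1 without T138 replicate 1 or 2.

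Of 16 receptors of the CD28 family and other co-inhibitory receptors 6 fell and 1 rose, with a median of -0.69. Btla, an inhibitory receptor that dendritic cells also carry, was at 1344 and 933 against 2649, 3408 and 2586 (-1.35 ± 0.19, adjusted p = 0.00161). The part of dendritic cells in its level was not tested. Cd160, a receptor that shares a ligand with Btla, was at 0.98 and 6.77 against 197, 166 and 109 (-5.29 ± 0.82, adjusted p = 0.0027). Havcr2, or Tim-3, which marks dendritic cells as well as T cells, was the member that rose, at 955 and 631 against 41.3, 66.0 and 76.8 (3.68 ± 0.58). Its WT levels were under 100 in every library. The 6 falls became 2 without T138 replicate 2.

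Genes of follicular Treg cells, which enter B cell follicles, fell for 6 of 13, with the lowest median of the 42 pathway lists (-1.13). The follicle-homing receptor Cxcr5 was at 156 and 110.1 in T138 against 1343, 1165 and 1665 in WT (-3.38 ± 0.60, adjusted p = 0.00738), a call lost without T138 replicate 2, where its highest adjusted p was 0.0539, and lost without the filter on low values. Cd200, an inhibitory ligand, was at 1108 and 974 against 1743, 2014 and 2184 (-0.92 ± 0.16), a call lost without T138 replicate 2, where its highest adjusted p was 0.06. No member rose by limma, edgeR or DESeq2, or at an unadjusted p under 0.05. The 6 falls became 3 without T138 replicate 1 or 2 or WT replicate 3.

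Of 23 migration receptors 7 rose and 5 fell. Ccr2, a receptor for inflammatory chemokines that monocytes carry too, was at 11586 and 10248 in T138 against 534, 725 and 795 in WT (adjusted p = 0.00078), and Cxcr4, the receptor for Cxcl12, was at 5127 and 8303 against 1663, 1271 and 1859 (2.05 ± 0.23, adjusted p = 0.000568). Ccr7, which guides cells into lymph node T zones and was named after its values were seen, was at 555 and 667 against 5156, 2786 and 4048 (-2.67 ± 0.42, adjusted p = 0.00419), a call lost without the filter on low values. Ccr7, like every called gene, did not overlap between the groups, and WT replicate 1 was its highest library. The 5 falls became 3 without T138 replicate 1 or WT replicate 1 or 2 or 3 or by edgeR and 2 without T138 replicate 2.

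Among integrins and adhesion molecules 8 of 21 rose and 4 fell. Itgb3, the beta-3 chain of the vitronectin receptor, was at 3280.5 and 4462 in T138 against 363, 604 and 612 in WT (2.90 ± 0.39, adjusted p = 0.00182). Itga2, the collagen receptor chain that natural killer cells also carry, was at 435 and 312 against 32.4, 55.4 and 51.7 (3.00 ± 0.40). Selplg, the selectin ligand PSGL-1, was at 18067 and 15607 against 7999.9, 7129 and 9372 (1.05 ± 0.17, adjusted p = 0.00329). In each, both T138 libraries lay well above the highest WT library. The 8 rises became 3 without T138 replicate 1 or 2, 5 without T143 replicate 2 or WT replicate 1 or 2 and 4 without WT replicate 3, and the 4 falls 1 without T138 replicate 1 or 2 and 2 without WT replicate 1 or 2 or 3.

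**Figure D4:**
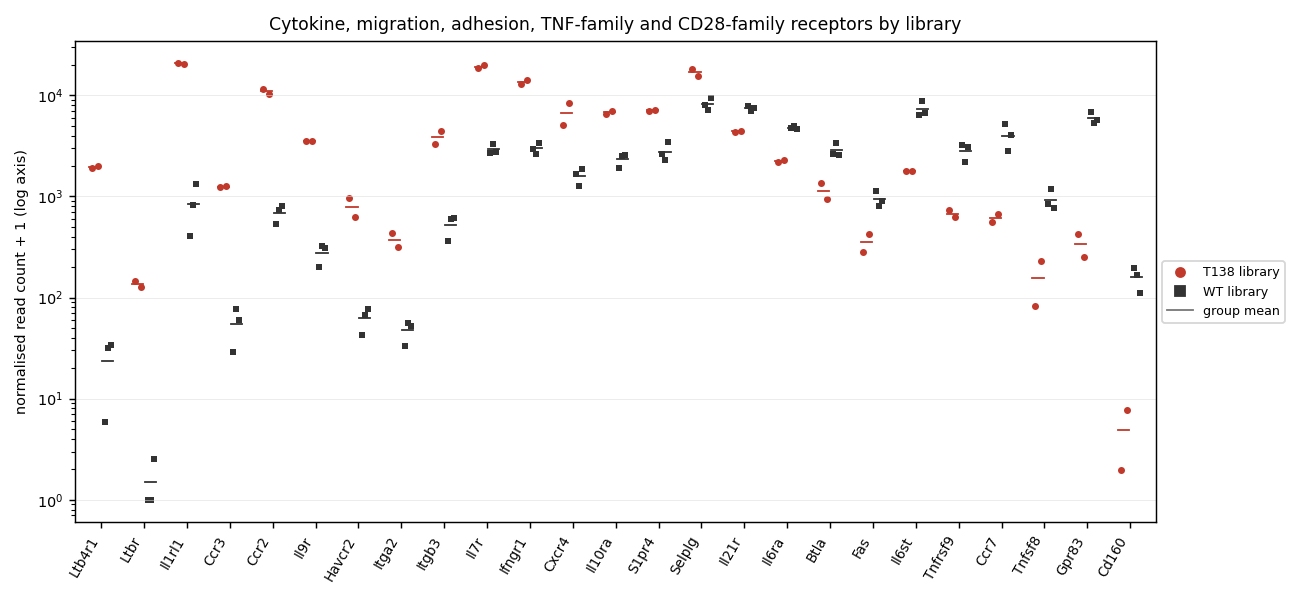
Normalised read count plus 1 (log axis) of receptors and ligands of 5 lists (cytokine, migration, adhesion, TNF family, CD28 family) that passed in every fit leaving out 1 library, ordered from largest rise to largest fall; circles are the 2 T138 and squares the 3 WT libraries, and lines mark group means. The genes run from Ltb4r1 at the left to Cd160 at the right.

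Early-response transcription factors of the AP-1 family mostly rose where they passed, and those of the EGR and NR4A families mostly fell. Of 17 AP-1 and related factors 7 rose and 1 fell, and of 9 EGR and NR4A factors 1 rose and 3 fell. The promoters of 5 members that the results below turn on are shown here, because members of both groups are known to be switched on by the same receptor signals. They are the 250 bases before a transcript start given in the RefSeq promoter table on GRCm38.p6, in the direction of transcription. That start need not be the outermost of the gene: those of Fosb, Nr4a3 and Bach2 lie inside the gene bounds, that of Bach2 far inside. The windows shown are Fosb at chr7:19310046-19310295 (minus strand), Atf3 at chr1:191183334-191183583 (minus strand) and Fosl2 at chr5:32136222-32136471 (plus strand), which rose, and Nr4a3 at chr4:48045055-48045304 (plus strand) and Bach2 at chr4:32417185-32417434 (plus strand), which fell. Capitals mark matches, on either strand, to the core TGACG of the cyclic AMP response element and to the NF-kB element.
Fosb: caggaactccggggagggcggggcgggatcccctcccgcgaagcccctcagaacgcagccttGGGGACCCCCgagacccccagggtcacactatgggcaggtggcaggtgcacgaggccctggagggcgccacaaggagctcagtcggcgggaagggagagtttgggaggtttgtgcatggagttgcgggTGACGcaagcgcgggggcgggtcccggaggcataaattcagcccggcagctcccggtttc
Atf3: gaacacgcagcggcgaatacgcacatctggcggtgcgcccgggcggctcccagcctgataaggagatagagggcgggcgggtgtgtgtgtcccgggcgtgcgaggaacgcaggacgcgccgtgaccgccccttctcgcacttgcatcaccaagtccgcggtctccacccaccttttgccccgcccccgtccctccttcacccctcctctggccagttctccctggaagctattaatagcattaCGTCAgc
Fosl2: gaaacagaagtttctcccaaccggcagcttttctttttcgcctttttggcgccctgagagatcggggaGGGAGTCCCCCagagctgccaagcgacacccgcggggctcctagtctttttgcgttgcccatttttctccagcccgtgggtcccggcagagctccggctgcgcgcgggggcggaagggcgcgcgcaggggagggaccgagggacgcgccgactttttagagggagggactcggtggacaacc
Nr4a3: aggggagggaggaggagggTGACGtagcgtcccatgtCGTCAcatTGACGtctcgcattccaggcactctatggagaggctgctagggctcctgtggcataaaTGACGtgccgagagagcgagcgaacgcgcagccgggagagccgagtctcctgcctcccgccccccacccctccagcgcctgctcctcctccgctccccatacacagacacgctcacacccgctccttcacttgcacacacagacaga
Bach2: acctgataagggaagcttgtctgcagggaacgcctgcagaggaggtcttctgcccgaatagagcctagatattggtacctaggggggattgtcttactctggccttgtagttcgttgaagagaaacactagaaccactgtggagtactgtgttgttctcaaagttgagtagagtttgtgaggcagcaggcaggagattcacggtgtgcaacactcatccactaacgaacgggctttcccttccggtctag

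The core lay 60 bases before that transcript start in Fosb and 7 bases before it in Atf3, and Nr4a3 held 4 matches. Over the same window 17.7% of 32817 RefSeq promoters held the core, and 3.9% the NF-kB element, which Fosb and Fosl2 held. Of the members of both families that rose, 7 had a promoter in the table, of which 4 held the core and 3 the NF-kB element. Of those that fell, 3 had one, of which 1 held the core and 0 the NF-kB element. The full element TGACGTCA, which contains the core, and the serum response element (CArG box) were in 0 of these 10 windows and in 1.55% and 1.47% of all. A match is a stretch of letters, not a measured binding site. Egr3 is named only.

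Fosb, an AP-1 subunit, was at 3214 and 3572 in T138 against 247, 301 and 199.9 in WT (adjusted p = 0.000335). Atf3, a stress-induced bZIP factor, was at 512 and 691 against 0, 3.19 and 4.56 (7.70 ± 0.83, adjusted p = 0.000482), so that WT held at most a few reads. Fosl2 was at 673 and 766 against 73.7, 121 and 112 (2.83 ± 0.41, adjusted p = 0.00206). Bach2, a repressor that keeps T cells quiescent by competing with AP-1, was at 220.5 and 404 against 3039, 3200.3 and 2413 (adjusted p = 0.000377). The 7 rises became 4 without T138 replicate 1. Fos, the founding member, named after its values were seen, was at 4051 and 3956 against 2337, 348 and 479.6, a call lost without T138 replicate 1 or 2 or T143 replicate 2 or WT replicate 2 or 3, where its highest adjusted p was 0.156, and lost in edgeR (adjusted p = 0.107), and lost in a fit of the 5 libraries alone, without the filter on low values, under a filter of 50 in 2 libraries, with median centring, without trend and robust fitting, in DESeq2 or with a replicate block.

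Egr1, the zinc finger factor induced within minutes of stimulation, was at 7845 and 7217 in T138 against 2023, 1877 and 2289.9 in WT (adjusted p = 0.000129). Its relatives Egr2 and Egr3, which restrain T cell activation, were at 234 and 191 against 662, 776 and 1049 and at 182 and 253 against 860.3, 1213 and 1135. Nr4a3, an orphan nuclear receptor that follows antigen receptor signal, was at 14.8 and 30.5 against 834, 810.5 and 1179.5 (adjusted p = 6.03e-05). Every T138 library was high for Egr1 and low for the other 3.

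The MAP kinase and NF-kB feedback genes were mixed as well. Dusp5, a phosphatase of nuclear ERK, was at 2029 and 2426 in T138 against 316, 286 and 357 in WT (adjusted p = 6.3e-05), while Spry1, an inhibitor of the pathway upstream, was at 134 and 22.9 against 888, 966 and 979 (-4.06 ± 0.62, adjusted p = 0.00247). Ier3, an early-response survival factor, was at 976 and 695 against 8.27, 17.0 and 5.32 (6.34 ± 0.71, adjusted p = 0.000561). Of 19 MAP kinase feedback genes 4 rose and 2 fell (the falls became 1 without T138 replicate 2 or T143 replicate 1 or 2 or WT replicate 1 or 3 or by edgeR).

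Tnfaip3, the ubiquitin editor A20 that ends NF-kB signals, was at 23736 and 25603 in T138 against 4745, 3902 and 3675 in WT (2.59 ± 0.15, adjusted p = 2.42e-05). Nfkbia, the inhibitor IkB alpha, was at 11375 and 11433 against 5446, 3641 and 4639.8 (1.34 ± 0.18, adjusted p = 0.00155). Rel, the subunit c-Rel that Treg development needs, was at 470.5 and 581 against 935, 1238 and 1053 (-1.03 ± 0.21), a call lost without T138 replicate 1, where its highest adjusted p was 0.0816, and Cd83, a surface protein of activated lymphocytes and dendritic cells, was at 456 and 389 against 2313, 1848 and 2706 (-2.42 ± 0.28, adjusted p = 0.00061). The inhibitors were thus higher and the subunit Rel lower in both T138 libraries. In all 4 of 20 NF-kB genes rose and 2 fell, and the rises became 2 without T138 replicate 1 or 2 or WT replicate 3. Zfp36, which speeds decay of cytokine and early-response messages, was at 28891 and 22408 against 7970.3, 5077 and 5648 (adjusted p = 0.000289). It was 1 of 2 that rose among 15 mRNA decay regulators, of which 1 fell, a share of 20% against 11% of all tested genes. These rises became 1 without T138 replicate 1 or 2 or WT replicate 1 or 3, and the fall 0 without T138 replicate 1 or WT replicate 3.

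**Figure D5:**
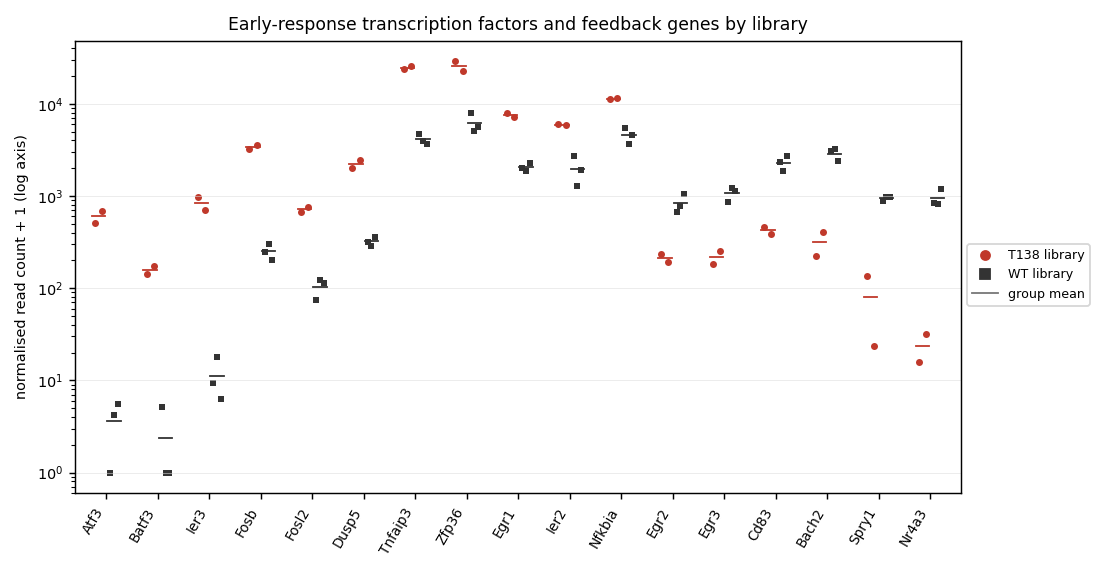
Normalised read count plus 1 (log axis) of early-response factors and feedback genes that passed in every fit leaving out 1 library, from largest rise to largest fall; circles are the 2 T138 and squares the 3 WT libraries, and lines mark group means. Atf3, Batf3 and Ier3 sit near the floor in WT, while Egr2, Egr3, Bach2, Spry1 and Nr4a3 are higher in every WT library than in either T138 library.

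Upstream of these genes, the antigen receptor complex and its kinases held 21 tested genes, of which 6 fell and 1 rose, with a median of -0.35. Fyn, a Src-family kinase, was at 5569.8 and 5857 in T138 against 10187, 11059.98 and 11052 in WT (-0.91 ± 0.14, adjusted p = 0.00229). Zap70, the kinase that binds the receptor zeta chain, was at 2842 and 2929.6 against 4844, 5458 and 5961 (-0.90 ± 0.17), a call lost without T138 replicate 1 or 2, where its highest adjusted p was 0.0566, and lost without trend and robust fitting. Malt1, the protease of the NF-kB arm, was at 7459 and 6516 against 3081, 4048 and 3022 (1.06 ± 0.17, adjusted p = 0.00304). The 6 falls became 1 without T138 replicate 1 or 2, 2 without T143 replicate 2 or WT replicate 3 or by edgeR and 3 without WT replicate 1 or 2.

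Of 21 negative regulators of receptor signal 3 rose and 5 fell. Ubash3b, or Sts-1, a phosphatase that acts on Zap70, was at 3866 and 3578 in T138 against 686, 916 and 992 in WT (2.12 ± 0.18, adjusted p = 0.00012). Lax1, an inhibitory adaptor, was at 1550.2 and 1824 against 3235, 3296 and 3715 (-1.02 ± 0.16, adjusted p = 0.00316). The 3 rises became 1 without T138 replicate 1 or 2, and the 5 falls 2 without T138 replicate 1 or WT replicate 2, 1 without T138 replicate 2 and 3 without T143 replicate 2 or WT replicate 3. Of 17 calcium and NFAT genes 4 fell, and none rose by limma, edgeR or DESeq2 (2 at an unadjusted p under 0.05). Their share called was 23.5%, against 11% of all tested genes. Rcan3, a regulator of calcineurin, was at 856 and 659.6 against 1484, 1508 and 1573 (-1.02 ± 0.20), a call lost without T138 replicate 2, where its highest adjusted p was 0.0878, and lost without trend and robust fitting, and the 4 falls became 2 without T138 replicate 1 or T143 replicate 2 or WT replicate 1 or by edgeR, 0 without T138 replicate 2 and 1 without WT replicate 3.

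Of 16 factors of the resting T cell state 3 fell and 3 rose. Tcf7, the factor TCF-1 of naive and memory cells, was at 2338 and 2875 in T138 against 11398, 13167 and 13316 in WT (adjusted p = 0.000209). Satb1, a chromatin organiser of thymic origin, was at 1301 and 1472 against 6239, 6875 and 5099.6 (-2.12 ± 0.22, adjusted p = 0.000424). Klf6, a zinc finger factor, was at 7752 and 9817 against 4622, 3432 and 3093 (1.25 ± 0.19, adjusted p = 0.00248). The 3 rises became 1 without T138 replicate 2, and the 3 falls 5 without T143 replicate 3. Bcl2, the survival factor that resting T cells keep high, was at 1511 and 1453 against 6409.6, 7618 and 5917 (adjusted p = 9.01e-05), whereas Pmaip1, the pro-apoptotic Noxa, was at 3100.4 and 3322 against 836, 890.3 and 547 (2.11 ± 0.35, adjusted p = 0.00414). These were the 2 of 15 BCL2 family genes that passed, a share of 13.3% near the 11% of all tested genes. Without T143 replicate 1 a further member rose.

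Besides Lrrc32, the TGF-beta genes held 4 falls and 2 rises among 18. Nrros, an Lrrc32 relative known from macrophages, was at 3816 and 3557 in T138 against 2022, 1709 and 2132 in WT (0.92 ± 0.15, adjusted p = 0.00392). Tgfbr3, a co-receptor, was at 129 and 143.09 against 552, 738 and 589.8 (-2.19 ± 0.32, adjusted p = 0.00221). The related proteins Lrrc32 and Nrros, which both hold latent TGF-beta, thus differed in direction. The 5 falls of the list became 2 without T138 replicate 1 and 3 without T138 replicate 2 or WT replicate 1 or 2, and the 2 rises 1 without T138 replicate 1 or 2 or T143 replicate 2 or WT replicate 1 or 3.

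Secreted suppressor genes rose for 4 of 12 and fell for 1. Fgl2, a soluble effector of Treg cells that myeloid cells also make, was at 4613 and 3279 in T138 against 136, 128 and 268 in WT (adjusted p = 0.000131). Lgals1, or galectin-1, was at 3947 and 4112 against 1557, 1127 and 1977 (1.41 ± 0.24, adjusted p = 0.00454). Penk, the precursor of enkephalins, was at 36.4 and 163 against 705, 786 and 1529.9 (-3.59 ± 0.67), a call lost without T138 replicate 1, where its highest adjusted p was 0.0634, and lost without the filter on low values or without trend and robust fitting. The 4 rises became 2 without T138 replicate 1, and the fall 0 without T138 replicate 1. Of 9 adenosine pathway genes 2 fell (0 without T138 replicate 1 or 2 and 1 without T143 replicate 3 or WT replicate 1 or 2 or 3 or by edgeR), Dpp4 and Slc29a1. That share was 22.2%, against 11% of all tested genes. Dpp4, which binds adenosine deaminase, was at 1675 and 1748 against 2935, 2893 and 2612 (-0.72 ± 0.14), a call lost without T138 replicate 1 or 2, where its highest adjusted p was 0.0684, and lost without trend and robust fitting.

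Of the 42 pathway lists, the S100, annexin and cytoskeletal genes had the highest median, with 11 of 19 higher and a median of 1.25, against 5.74% of all genes and a median of -0.065. None of the 19 was lower by limma, edgeR or DESeq2 or at an unadjusted p under 0.05. S100a4, a calcium-binding protein of motile cells, was at 9296 and 8176 in T138 against 926, 571 and 1567 in WT (3.21 ± 0.40, adjusted p = 0.00129). Lgals3, or galectin-3, abundant in macrophages, was at 1156 and 1426 against 60.6, 59.6 and 122 (4.06 ± 0.59, adjusted p = 0.00298). S100a10, which binds annexin A2, was at 11324 and 10636 against 4279, 3297 and 6038 (1.32 ± 0.23), a call lost without T138 replicate 1, where its highest adjusted p was 0.0511, and lost without trend and robust fitting. The 11 rises became 5 without T138 replicate 1 and 6 without T138 replicate 2. Of 8 GIMAP GTPases 1 rose (0 without T138 replicate 1 or 2).

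Of 16 genes of Myc and amino acid transport 6 fell, with a median of -0.49. Myc was at 1008 and 875 in T138 against 2643, 2538 and 3008 in WT (-1.53 ± 0.17, adjusted p = 0.000561). Slc7a5, the large neutral amino acid transporter that Myc induces, was at 326 and 364 against 774, 729.5 and 777 (-1.14 ± 0.20, adjusted p = 0.00484), and the Myc antagonist Mxd4 was at 631 and 598 against 1227, 1100.1 and 1360.4 (-0.99 ± 0.17). The 6 falls became 3 without T138 replicate 2 or WT replicate 3. Hspd1, the mitochondrial chaperonin, was at 529 and 603 against 1101, 1052 and 1142 (-0.96 ± 0.16, adjusted p = 0.0045), 1 of 3 that fell among 24 chaperones (1 without T138 replicate 2 or T143 replicate 2 or WT replicate 1 or 3 and 5 without WT replicate 2).

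Ribosomal protein genes had a low median (-0.51) but few calls. Of 76 tested limma called 2 lower, 17 were lower at an unadjusted p under 0.05, and edgeR called 0 and DESeq2 5. The sums were 116300 and 101800 in T138 against 221000, 87710 and 159400 in WT, with both T138 sums between the WT sums. Their 2 calls became 4 without T138 replicate 1, 0 without T138 replicate 2 or T143 replicate 2 or by edgeR, 1 without WT replicate 1 or 3 and 6 without WT replicate 2. Of 66 nuclear-encoded respiratory chain genes limma called 0 (3 at an unadjusted p under 0.05, 0 by edgeR, 2 by DESeq2), with 7 lower without WT replicate 2 and 1 higher without WT replicate 1 or 3. Atp5b, the catalytic subunit of ATP synthase, was at 7516 and 6562 against 10882, 6456 and 10436, with WT replicate 2 below both T138 libraries.

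Proteasome, glycolysis and stress genes gave no call. Limma called 0 of 19 proteasome genes (2 at an unadjusted p under 0.05, 0 by edgeR and by DESeq2) and 0 of 22 glycolysis and hypoxia genes (3 unadjusted, 0 by edgeR, 1 by DESeq2, and 1 higher without T143 replicate 1 or 3). Ldha, lactate dehydrogenase A, was at 3737 and 3157 in T138 against 5069, 3229 and 4928 in WT. Limma also called 0 of 17 integrated stress and unfolded protein genes (5 unadjusted, 0 by edgeR, 2 by DESeq2), with 3 called higher without WT replicate 1 and 1 lower without WT replicate 2. Sc5d, an enzyme late in sterol synthesis, was at 1509 and 1289.5 against 643, 718 and 657 (1.05 ± 0.17, adjusted p = 0.00317), while Dhcr7, the next enzyme of that path, was at 547 and 481 against 786, 925 and 919.6 (-0.77 ± 0.18), a call lost without T138 replicate 1 or 2 or WT replicate 3, where its highest adjusted p was 0.133, and lost without the filter on low values or without trend and robust fitting. Of 24 sterol genes 1 rose and 2 fell (the falls became 0 without T138 replicate 1 or 2 or WT replicate 3 and 1 without T143 replicate 2 or WT replicate 1 or by edgeR), and of 26 fatty acid genes 1 rose (0 without T138 replicate 1 or 2 or T143 replicate 2 or WT replicate 1 or 2 or 3) and 2 fell (1 without T138 replicate 1 or T143 replicate 2 or WT replicate 1 and 0 without T138 replicate 2 or WT replicate 2 or 3 or by edgeR). These shares, 12.5% and 11.5%, were near the 11% of all tested genes. So were those of the chaperones (12.5%), the GIMAP GTPases (12.5%) and the p53 response genes (13.3%).

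The circadian clock list held 4 falls and 1 rise among 12. Per2, a repressor of the clock, was at 30.5 and 68.6 in T138 against 386, 530.4 and 364 in WT (-3.17 ± 0.36, adjusted p = 0.000615), and its partner Cry2 was at 209 and 309.9 against 829, 666 and 749 (-1.55 ± 0.24, adjusted p = 0.00261). Cry1 was at 1444 and 1396 against 791, 875 and 928 (0.72 ± 0.17), a call lost without T138 replicate 1 or 2 or WT replicate 1, where its highest adjusted p was 0.105, and lost without the filter on low values, with median centring, without trend and robust fitting or without both libraries whose source name points to another mouse. The hour of sampling is not given in the labels. The 4 falls became 2 without T138 replicate 2 or T143 replicate 2 or WT replicate 1 or by edgeR, and the rise 0 without T138 replicate 1 or 2 or WT replicate 1.

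Among interferon-stimulated genes 3 of 30 rose, a share of 10% near the 11% of all tested genes, or 5 with 1 fall without T143 replicate 3. Gbp3, a guanylate-binding protein induced by interferon gamma, was at 6467 and 4817 in T138 against 2228, 2374 and 2206 in WT (1.30 ± 0.16), and its relative Gbp7 at 14911 and 11396 against 5286, 5889 and 4706 (1.31 ± 0.19). For both, T138 replicate 1 was the highest of the 5 libraries. Of 14 MHC class I presentation genes 1 rose, H2-D1 (0 without T138 replicate 1 or 2 or T143 replicate 2 or WT replicate 2 or 3 or by edgeR and 2 without T143 replicate 3). B2m, the shared light chain, was at 59757 and 50346 against 39537, 27316 and 39177, and did not pass (adjusted p = 0.101). Glucocorticoid response genes rose for 2 of 11 (1 without T138 replicate 2). The shares called were 7.14% for MHC class I presentation and 18.2% for the glucocorticoid response, against 11% of all tested genes. Cdkn1c, which is among the glucocorticoid response genes, is also imprinted and is given next.

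Imprinted genes, expressed from the maternal or paternal copy alone, are of interest in animals made by nuclear transfer. Of 27 tested, 4 rose and 3 fell. Cdkn1c, a maternally expressed cell cycle inhibitor (chromosome 7, 143458339 to 143461059), was at 490.1 and 519.9 in T138 against 39.3, 10.7 and 32.7 in WT (4.33 ± 0.60, adjusted p = 0.00162). Igf2r, a receptor that clears insulin-like growth factor 2 (chromosome 17, 12682406 to 12769706), was at 1521 and 1518 against 7007, 6252 and 6476 (-2.11 ± 0.17, adjusted p = 8.93e-05). Airn, the antisense transcript of Igf2r (chromosome 17, 12741311 to 12859884), was at 83.7 and 55.9 against 309.9, 486 and 337 (-2.42 ± 0.40), and as the strand setting of the counting is not known here, reads of the pair may be split. The 4 rises became 2 without T138 replicate 1 or WT replicate 1 and 1 without T138 replicate 2 or WT replicate 3.

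Of 14 DNA methylation genes 2 fell, a share of 14.3% against 11% of all tested genes. Dnmt3a, a de novo methyltransferase, was at 1949 and 1704 in T138 against 3105, 4354 and 3686 in WT (-1.01 ± 0.17), a call lost without T138 replicate 2, where its highest adjusted p was 0.0536. Tet1, which oxidises methylated cytosine, was at 113 and 151 against 557, 683 and 389 (-2.01 ± 0.39), a call lost without T138 replicate 1, where its highest adjusted p was 0.0734, and lost without trend and robust fitting. The 2 falls became 1 without T138 replicate 1 or 2 and 4 without WT replicate 1. Of 32 cell cycle genes 2 rose, both inhibitors, and 1 fell, a share of 9.38% against 11% of all tested genes: Cdkn1a, or p21, was at 374 and 508 against 43.4, 26.6 and 85.1 (3.21 ± 0.59), a call lost without T138 replicate 2, where its highest adjusted p was 0.0707. The 2 rises became 1 without T138 replicate 1 and 0 without T138 replicate 2, and the fall 2 without T138 replicate 1 and 0 without T138 replicate 2 or WT replicate 1 or 3. Among 15 p53 response genes the same Cdkn1a rose and Fas fell, and without T138 replicate 2 only Fas passed.

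Genes that passed were spread along the genome. The share called ran from 8.03% on chromosome 8 to 13.1% on chromosome 17 on the autosomes and X, against 11% overall. Within 5 Mb of Rag1, which the strain label gives as knocked out, 5 of 35 tested genes passed (14.3%), and within 5 Mb of the Foxp3 reporter 6 of 51 did (11.8%). Around the receptor alpha and beta loci, rearranged in the donor nucleus, the shares were 10.5% of 133 and 9.26% of 54. Chromosome 4 held more falls (7.08%) than rises (3.54%), and chromosome 6 more rises (7.51%) than falls (4.26%).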

How the data were processed

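Messenger RNA of cells sorted as CD4+ Foxp3+ was sequenced from TruSeq stranded libraries, per the labels' protocols. The authors deposited 1 table of normalised read signal per gene and library, for 8 libraries. Per the submitters' processing notes the tools were STAR 2.5.2b, CASAVA 1.8.2 and HOMER 4.8, plus edgeR (version unstated), and the genome build was mm10; what each was used for is unstated. How reads on overlapping or near-identical genes were counted was not given in those notes or the labels.

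Deposited signal values of each library were whole multiples of its smallest step within 0.01, for all values, so reads and relative depth could be recovered. Genes with a value of at least 1 in 2 libraries (15547 of 24453) were compared by limma 3.58.1 (R 4.3.3, trend and robust fitting) on the log2(value + 1) scale, with 1 mean per line over all 8 libraries, which share the spread, and Benjamini-Hochberg adjustment over all tested genes. The threshold was an adjusted p of 0.05. A change on this scale understates that of low genes. edgeR 4.0.16 and DESeq2 1.42.0 were run on recovered reads. A lone library left after leaving out its partner is assumed to vary like the other groups. No pair of replicates agreed within sampling noise.

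The members and the 42 pathway and 14 marker lists were chosen with earlier results of these data known, so list counts are descriptions. Named by rule were: Foxp3, Cd4 and Rag1; the 12 largest called changes per direction above the median level; in each pathway list up to 4 called members with the smallest p, or 2 abundant members where fewer than 2 were called; the 3 highest markers per group; up to 8 floor genes per direction; and up to 3 promoters per direction. Predicted genes, receptor segments and small RNAs were left out of the largest changes, and some genes the rule names are not reported here. Gene positions and promoters are from RefSeq tables of GRCm38.p6, which placed 15523 tested genes.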

Additional observations from a re-analysis of the deposited data

How the results depend on the processing

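Of 1716 genes called, 892 higher and 824 lower, 900 (484 and 416) were called with no filter on low values and 977 (513 and 464) without trend and robust fitting. With only the 5 T138 and WT libraries 1235 were called, 526 of them lower, and 542 lower genes had a log2 change of at least 1 in size. Leaving out 1 library gave 757 to 1779 calls, 390 to 971 higher and 367 to 840 lower, with the fewest without T138 replicate 2. The replicate block gave 1804 calls. Deviations of same-numbered libraries from their group means had an r of -0.062 to 0.055. The deviations of the 2 T138 libraries mirror each other, so this check cannot decide whether the numbers pair libraries. edgeR called 1344 and DESeq2 2269. Quantile normalization gave 1732, median centring 1646, a pseudocount of 8 gave 1638 and a filter of 50 in 2 libraries 1560. The median change of tested genes was -0.065, and -0.081 and -0.106 under the scalings. Without T138 replicate 1 falls outnumbered rises (578 against 423). Under quantile normalization the median of the other cytokine receptors went from 0.14 to -0.17, that of calcium and NFAT genes from -0.04 to 0.003 and that of mRNA decay regulators from 0.02 to -0.019. No gene named by the rule outside the marker lists turned direction under these settings where it was called in the main or the other fit. Sign changes of genes called in neither were not counted. At these depths 3 reads or fewer in a library do not show that a gene is absent.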
